A study of Mus musculus with 5 samples.

Results

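The MHC class II presentation genes were described here as 9 rows of a single-cell count matrix of the mouse kidney, chosen by symbol out of the 32285 genes measured. They were H2-Aa, H2-Ab1 and H2-Eb1, Cd74, H2-DMa and H2-DMb1, H2-Oa and H2-Ob, and Ciita. The study followed male C57BL/6J mice, 6 to 8 weeks old, in which the left renal pedicle was clamped for 35 min and the right kidney was left intact. This unilateral ischemia-reperfusion (UIR) injury was sampled at days 1, 3, 14 and 28, and sham mice had surgery without the clamp. Each of these 5 conditions gave 1 sample of dissociated kidney cells, for which the labels name 3 mice, and no transgene or deletion is named for any group. The matrix holds 5 libraries, numbered 1 to 5 by the suffix of the cell barcode. The study's methods describe more matrices than that, and whether a library pools several mice is not settled by the sources used here. The labels used here do not tie a library number to a condition, so the libraries are named by number, no day is given to any of them, and no test between conditions was made.

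The 5 libraries held 82426945 to 139382799 UMIs (unique molecular identifiers, each marking 1 captured transcript), and 57798 cells remained after filtering, 8299 to 19108 in each library, with a median of 4600 UMIs. Of these cells, 709 (1.23%) had a barcode that also marked a kept cell of another library. The labels name the cells as goblet cells. None of the 57798 cells held UMIs of 3 or more of 6 goblet markers, and these markers summed to 177 UMIs over all cells, whereas 41782 cells carried proximal tubule markers. Cells were placed in classes by marker genes that included none of the 9 genes. The gates held 876 macrophage, 335 classical monocyte, 45 non-classical monocyte, 147 dendritic, 229 B, 1003 T, 195 endothelial and 581 thick ascending limb cells. At least 3 markers of a class were required. Exactly that number was held by 114 of the macrophage-gated, 69 of the classical monocyte, 81 of the dendritic and 92 of the B-gated cells, and 10835 cells were left in no class.

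MHC class II molecules are heterodimers of an alpha and a beta chain that carry peptides from the endocytic pathway to the cell surface, where CD4+ T cells read them. Cd74, the invariant chain, fills the groove of the new dimer and guides it to the endosome. There the H2-DM dimer exchanges its last fragment for antigenic peptide, and the H2-O dimer restrains H2-DM. Dendritic cells, B cells and macrophages are the professional users of this pathway, and kidney tubule epithelium is known to take it up under inflammatory conditions. Ciita, the transactivator, binds no DNA itself and works through factors seated on a conserved promoter module of X and Y boxes in most of these genes.

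Of these loci, 7 lie together on chromosome 17 (GRCm38, GENCODE release 21 annotation), within 224 kb. H2-Oa (+) lies at chr17:34092340-34095234, H2-DMa (+) at chr17:34119541-34139101 and H2-DMb1 (+) at chr17:34153072-34160230. H2-Ob (+) follows at chr17:34238903-34254414, H2-Ab1 (+) at chr17:34257689-34269419, H2-Aa (-) at chr17:34282744-34287823 and H2-Eb1 (+) at chr17:34305867-34316674. Ciita (+) lies at chr16:10480059-10528418, and the locus of Cd74 is given beside its levels.

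The promoter table (RefSeq, GRCm38.p6, 250 bases before to 50 after each start) held 6 of the 9 genes. It was searched on both strands for an X box written CNNGNAAC and a Y box written TGATTGG, letters chosen after the sequences had been seen. An X box followed by a Y box on the gene's own strand, with 15 to 50 bases between their starts, stood before the RefSeq start of 5 of these 6 genes. Over all 32851 promoters of the table the X box letters were found in 39.1%, the Y box letters in 7.82% and such a pair in 0.161%. H2-DMa, with 2 entries, had the X box letters and no Y box. H2-Ab1, Cd74 and Ciita had no entry. The stretches are shown because they are the sequence feature that genes of different roles in the pathway shared; each is read 5′ to 3′ on the gene's strand, and capitals mark the X box and then the Y box.
H2-Aa (alpha chain, chr17:34287861-34287913, minus strand): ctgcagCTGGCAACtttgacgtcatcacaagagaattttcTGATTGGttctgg
H2-Eb1 (beta chain, chr17:34305767-34305818, plus strand): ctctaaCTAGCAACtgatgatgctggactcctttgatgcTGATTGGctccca
H2-DMb1 (peptide editor, chr17:34153088-34153140, plus strand): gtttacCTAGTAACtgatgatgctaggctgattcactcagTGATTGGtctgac
H2-Oa (editor inhibitor, chr17:34092294-34092346, plus strand): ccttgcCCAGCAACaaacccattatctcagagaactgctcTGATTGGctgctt
H2-Ob (editor inhibitor, chr17:34238809-34238858, plus strand): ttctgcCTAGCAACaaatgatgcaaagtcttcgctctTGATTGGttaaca
The X box began 79 to 97 bases before the RefSeq start, and the distance between the starts of the boxes was 31 to 34 bases. RefSeq starts are not always the GENCODE gene bounds given above: by the latter, the H2-DMb1 stretch lies inside the gene and the H2-Oa stretch spans the start. A match of letters is a description of these windows and not a measured binding site.

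All levels below are CPM, UMIs of a gene per 1000000 UMIs of the same cells. Since the cells of 1 library share their source and the libraries are not replicates, intervals are exact 95% Poisson intervals, or exact conditional binomial intervals for a ratio, and cover counting error only. The chemistry counts 3′ ends without regard to length, so levels were compared for 1 gene between classes and not between genes.

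H2-Aa, the alpha chain of the I-A dimer, had its highest pooled level in dendritic-gated cells, at 9865 CPM (95% interval 9664 to 10070). Macrophage-gated cells followed at 5930 CPM (5860 to 6000), B-gated cells at 4010 CPM (3804 to 4224) and non-classical monocytes at 2754 CPM, and classical monocytes had 892 CPM (841 to 944). All other classes of more than 50 cells lay at 44.3 CPM or below. Library by library, dendritic-gated cells (9001 to 13374 CPM in 2 libraries of 20 or more cells) overlapped macrophage-gated cells (1873 to 14406 CPM in 5), and these overlapped B-gated cells (2546 to 6003 CPM in 3). Classical monocytes (511 to 1436 CPM in 3 libraries) lay below each of these ranges, and T, endothelial and tubule cells lay below the monocytes in every library.

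**Figure D1:**
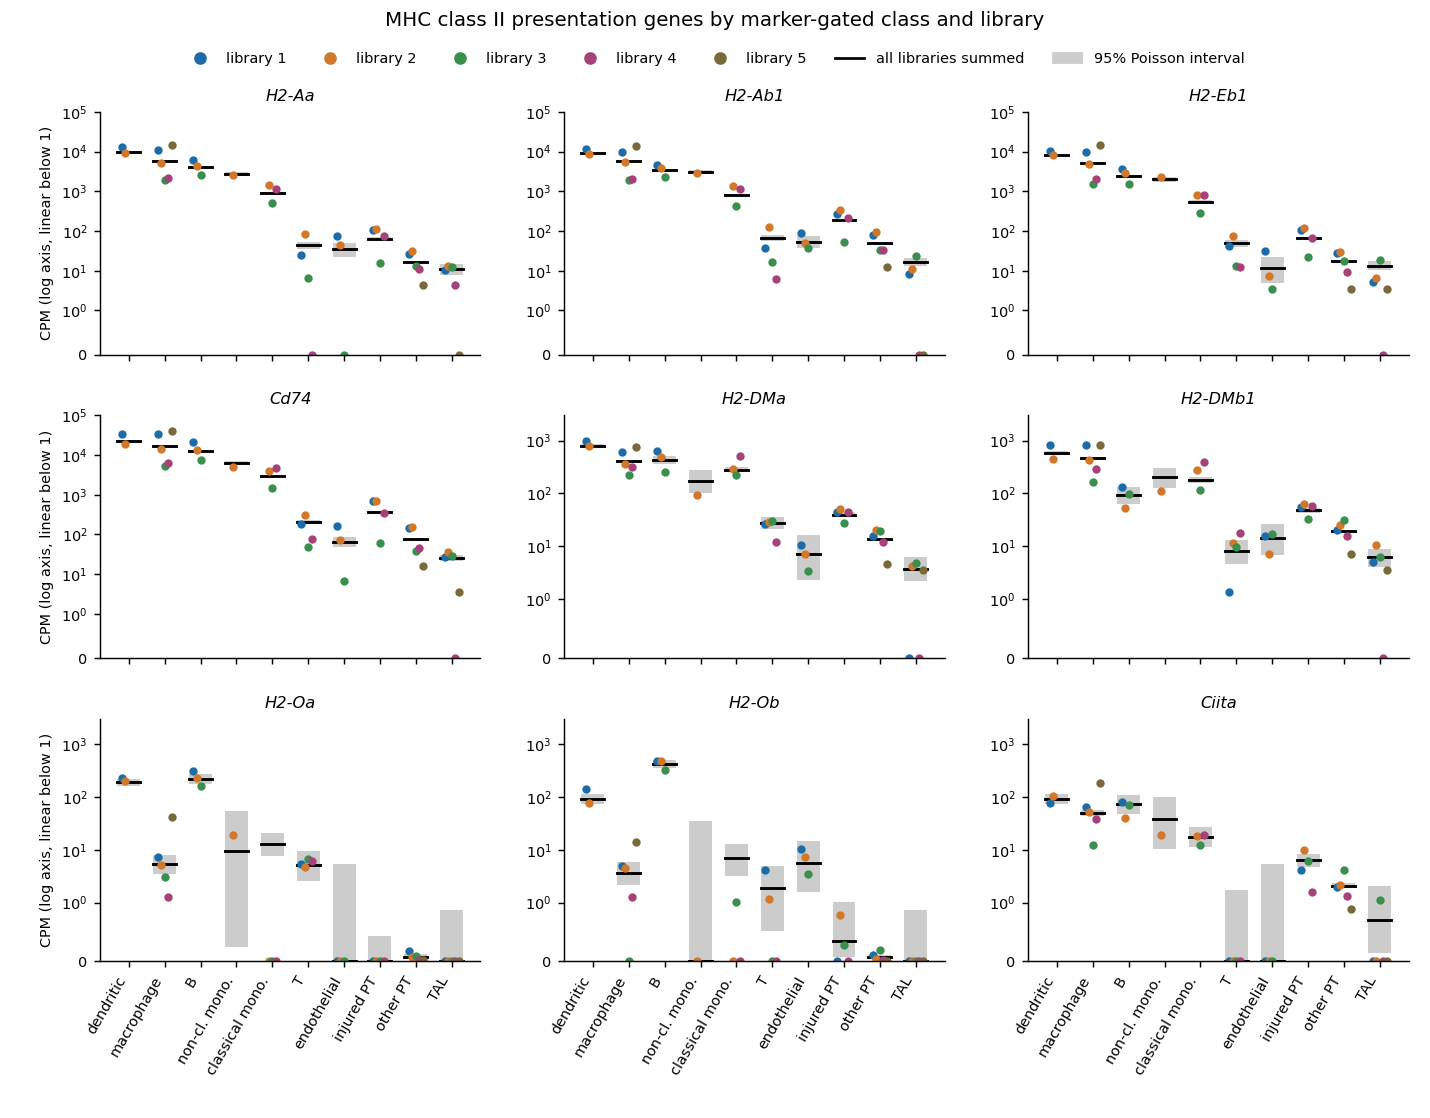
Levels of the 9 MHC class II presentation genes in CPM (y axis, log scale that turns linear near 0) in 10 marker-gated classes (x axis). Points are libraries of 20 or more cells, the black line is the level pooled over libraries and the grey bar its 95% Poisson interval; H2-Aa sits at 9865 CPM in dendritic-gated and 44.3 CPM in T-gated cells, and H2-Oa and H2-Ob are highest in the dendritic and B columns.

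H2-Ab1, H2-Eb1 and Cd74 kept this order. H2-Ab1, the I-A beta chain, had 8992 CPM in dendritic-gated, 5661 CPM in macrophage-gated, 3384 CPM in B-gated and 788 CPM in classical monocyte cells. H2-Eb1, the I-E beta chain, stood at 8186, 5238, 2421 and 550 CPM in the same classes, and Cd74, at chr18:60803848-60812652 (+), at 22952, 16895, 12948 and 2885 CPM. Thus the transcripts of H2-Aa, H2-Ab1, H2-Eb1 and Cd74 ranked the professional classes alike in the pooled sums. These are RNA levels, and which dimers the cells made was not measured.

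T cells were taken as the class that should lack these transcripts. With each cell of at least 1000 UMIs thinned to 1000, 2.47% of T-gated cells (exact binomial interval 1.57 to 3.68%) held an H2-Ab1 UMI. The share was 72.3% of macrophage-gated, 85.7% of dendritic-gated, 90.6% of B-gated and 23.2% of classical monocyte cells. Shallower cells were left out of all values thinned to this depth. They were 72 of 1003 T-gated, 78 of 876 macrophage-gated, 16 of 229 B-gated and 3 of 335 classical monocyte cells. So were 31 of 195 endothelial and 4135 of 41782 proximal tubule cells. Before thinning, and over all cells of a class, the shares were 4.89% of T-gated cells (median 1707 UMIs), 82.1% of macrophage-gated (3841 UMIs), 90.5% of dendritic-gated (5820 UMIs), 96.1% of B-gated (1373 UMIs) and 29.6% of classical monocyte cells (3624 UMIs). All 9 genes were at least 2-fold higher in B-gated than in T-gated cells, where 10.1% of the 8060 genes compared were. Ciita held 26 UMIs in B-gated cells and none in T-gated cells, where 3 UMIs would be 1.43 CPM. Genes were compared when their UMIs in both classes together reached a set limit. Ciita reached it through B-gated cells alone. H2-Ob reached it mainly through them, with 3 and 1 T-gated UMIs in libraries 1 and 2. Genes that pass in this way can only come out higher, so Ciita and H2-Ob add no support to the count of 9. In T-gated cells the transcripts were concentrated: the 10 cells with the most held 76.3% of the H2-Aa UMIs, and 1 cell held 48 of the 93. In macrophage-gated cells the top 1% held 4.68%.

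Macrophage-gated cells differed more in H2-Aa between libraries than dendritic-gated, macrophage-gated and B-gated cells did in their pooled levels. H2-Aa was 11136, 5208, 1873, 2155 and 14406 CPM in macrophage-gated cells of libraries 1 to 5. H2-Ab1 followed with 9597, 5566, 1948, 2042 and 13913 CPM, and Cd74 with 33146, 13846, 5425, 6462 and 39600 CPM. Libraries 1 and 5 were high, libraries 3 and 4 low and library 2 between them. The peptide editors kept this order of libraries with a narrower spread. H2-DMa was 610, 367, 223, 309 and 746 CPM, and H2-DMb1 810, 433, 162, 287 and 831 CPM. Ciita was 64.5 CPM (51.0 to 80.4) in library 1, 51.1 in library 2, 12.2 (5.29 to 24.1) in library 3, 37.5 in library 4 and 183 (97.5 to 313) in library 5. Library 5 held 43 such cells and library 3 held 142, and which condition each of them is was not given in the labels.

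The low libraries held many macrophage-gated cells with few or no class II transcripts. After thinning to 1000 UMIs, the median cell carried 94 UMIs of the 9 genes in library 1, 52 in library 2, 4 in library 3, 4 in library 4 and 82 in library 5. No UMI of any of the 9 was found in 2.55% of the cells of library 1, 11.8% of library 2, 28.4% of library 3 and 34.5% of library 4. In library 5 this was 0 of 35 cells, for which the exact interval reached 10.0%. The macrophage gate therefore spanned cells rich in these transcripts and cells in which none was sampled.

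The macrophage gate was split by state genes, and a cell may hold more than 1 of them. The 88 cells with Arg1, the arginase of alternatively activated macrophages, had 910 CPM of H2-Aa, and the 114 cells with Gpnmb, a glycoprotein of lipid-laden phagocytes, had 1039 CPM. The 418 cells with Cx3cr1, the fractalkine receptor carried by kidney-resident macrophages, had 6555 CPM, and the 368 cells with none of the 4 state genes had 8547 CPM. The gap between the first pair and the Cx3cr1 cells also held inside libraries. In library 2, H2-Ab1 was 1393 CPM in cells with Arg1, 956 with Gpnmb, 5874 with Cx3cr1 and 9780 with none of them. In library 4 the corresponding levels were 801, 540, 2555 and 3244 CPM. In library 3, cells with Arg1 had 553 CPM and cells with Cx3cr1 3172 CPM, but the cells with none of them had 1902 CPM. Cx3cr1 and state-free cells themselves differed between libraries, as H2-Ab1 in the Cx3cr1 cells ran from 9431 CPM in library 1 to 2555 CPM in library 4. The level therefore differed between libraries within a state as well as between states.

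Depth moved with the split, with median UMIs of 8681 in Arg1, 10115 in Gpnmb, 4724 in Cx3cr1 and 2670 in state-free cells, and its part in the result was not tested. Low cells lay in each state, as in library 4, where 67.3% of Cx3cr1 cells and 59% of state-free cells held an H2-Ab1 UMI.

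Ciita differed along the same split. It was 59.2 CPM in the Cx3cr1 cells, 3.20 CPM in the Arg1 cells and 4.91 CPM in the Gpnmb cells. After thinning, 50% of Arg1 cells and 49.5% of Gpnmb cells held no UMI of the 9 genes, against 11% of Cx3cr1 cells. The 110 cells with the proliferation genes Mki67 or Top2a had an intermediate 3130 CPM of H2-Aa. Lyve1, which marks a perivascular macrophage subset, was found in 3 gated cells and gives no usable level. Across thinned macrophage-gated cells, the 52 with a Ciita UMI had a median of 84 UMIs of the other 8 genes, and the 746 without had 40. These cells are pooled over libraries that differ in the same order in Ciita and in H2-Aa, H2-Ab1, H2-Eb1 and Cd74, and the part of that order in the gap was not tested. Ciita is sampled sparsely, so cells without a UMI are not cells without the transcript.

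**Figure D2:**
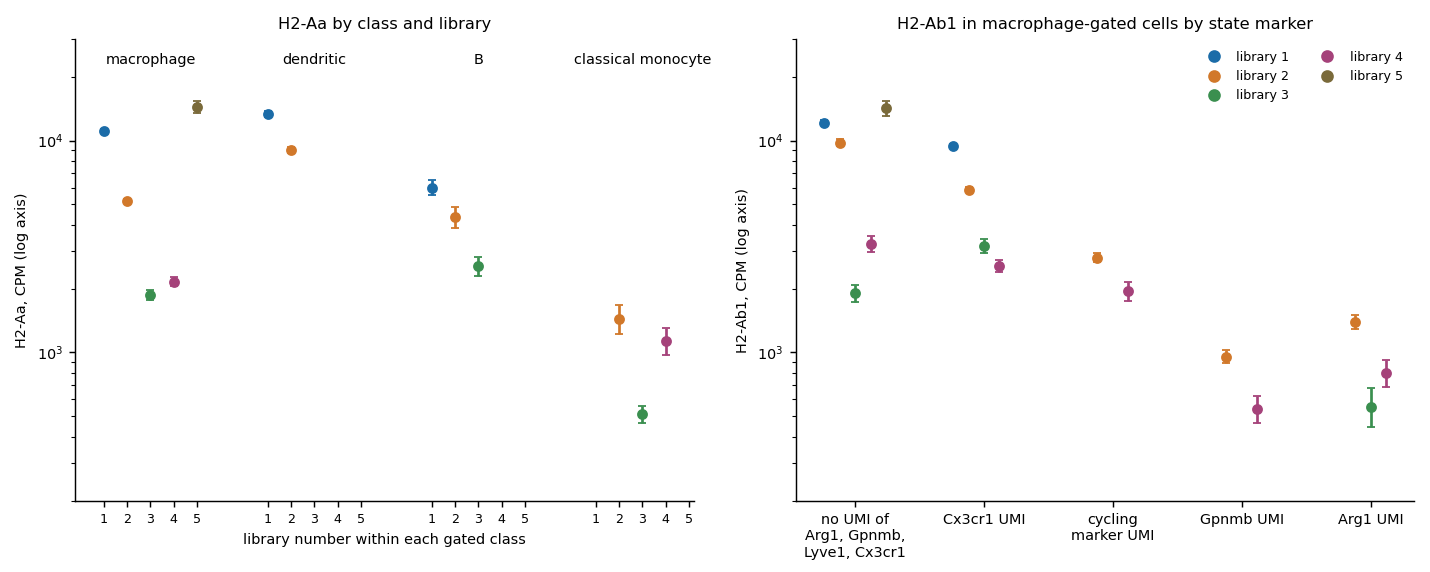
H2-Aa in CPM by class and library (left) and H2-Ab1 in CPM in macrophage-gated cells split by state gene and library (right), both on log axes. Bars through the points are 95% Poisson intervals; macrophage-gated cells run from 1873 CPM in library 3 to 14406 CPM in library 5, and the cells with Arg1 or Gpnmb lie below the Cx3cr1 cells in each library where both were measured.

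Classical monocytes, the Ly6c2-expressing blood monocytes that enter injured tissue, had little of the presenting chains in libraries 2, 3 and 4. H2-Aa was 1436 CPM in library 2, 511 CPM in library 3 and 1132 CPM in library 4. The 10 cells of library 1 and the 4 of library 5 together had higher H2-Aa and Cd74 levels than any of these libraries. They count in the pooled sums. Pooled over libraries, macrophage-gated cells exceeded classical monocytes by 2.73 on the log2 scale for H2-Aa (2.65 to 2.82), 2.85 for H2-Ab1, 3.25 for H2-Eb1 and 2.55 for Cd74. Of the 9 genes, 6 were at least 2-fold higher, against 10.2% of the 10127 genes compared, and H2-Oa was at least 2-fold lower (-1.28), against 9.13%. The H2-Oa direction turned with 1 more marker (0.98), by per-cell means (0.38) and with equal weights (0.46), and all 17 of its monocyte UMIs came from the 10 cells of library 1 and the 4 of library 5. Within a library the H2-Aa difference was 1.86, 1.88 and 0.93 in libraries 2, 3 and 4, each below the pooled value. For H2-Ab1 it was 2.01, 2.19 and 0.85, for H2-Eb1 2.60, 2.43 and 1.32, and for Cd74 1.77, 1.86 and 0.44. The pooled value sets macrophages from all libraries against monocytes of which 243 of 335 came from library 3. Without library 3, the median over the 9 genes was 0.67 in place of 1.48, and H2-DMb1 (0.53) and Ciita (0.67) were no longer 2-fold higher.

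The editors had smaller gaps that were not of 1 sign within libraries. H2-DMa differed by 0.53 pooled, by 0.34 in library 2 and 0.03 in library 3, and was lower in macrophage-gated cells of library 4, at -0.75. H2-DMb1 differed by 1.42 pooled and by 0.63, 0.46 and -0.48 in these libraries, and by 0.14 with the libraries weighted equally. In classical monocytes H2-DMa was 289, 219 and 519 CPM. Ciita was 1.48 higher pooled and 1.5, 0.01 and 1 within libraries. The 45 non-classical monocytes, the patrolling subset, had 2754 CPM of H2-Aa and 6451 CPM of Cd74, and 5 of 7 genes compared were at least 2-fold higher than in classical monocytes (12.8% of 5958 genes). In library 2, which alone held 20 or more cells of both, the log2 difference was 0.87 for H2-Aa and 0.34 for Cd74, while the editors were lower, H2-DMa at -1.63 (-3.34 to -0.25) and H2-DMb1 at -1.32 (-2.87 to -0.03). Without library 3 the median over the genes turned from 1.16 to -0.29.

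Dendritic cells, the main primers of naive T cells, had 13374 CPM of H2-Aa in library 1 and 9001 CPM in library 2. They exceeded macrophage-gated cells by 0.73 on the log2 scale pooled (0.70 to 0.77), by 0.26 in library 1 and by 0.79 in library 2. The Cd74 difference was 0.02 in library 1 (-0.02 to 0.05) and 0.49 in library 2. Only H2-Oa and H2-Ob were at least 2-fold higher, 2 of 9, where 8.23% of 9927 genes were. Without library 1 the median over the 9 genes was 1.03 in place of 0.73. These differences are of summed UMIs, and the median cell ranked otherwise. After thinning to 1000 UMIs, the median dendritic-gated cell carried 72.5 UMIs of the 9 genes in library 1 and 49 in library 2. Macrophage-gated medians were higher there, at 94 and 52. Cells with none of the 9 were 0% of dendritic-gated cells in both libraries, against 2.55% and 11.8% of macrophage-gated cells. The dendritic gate itself was mixed. The 58 cells with markers of type 1 cells, which cross-present, had 11042 CPM of H2-Aa, and the 24 with markers of type 2 cells had 12387 CPM. The 51 mature cells, marked by Ccr7, Fscn1, Cacnb3 and Ccl22, had 7277 CPM. In library 2, where both held at least 20 cells, type 1 cells had 9544 and mature cells 7766 CPM, and type 2 cells had no library of that size. H2-DMa was 313 CPM in the mature cells and 1096 CPM in type 1 cells, and H2-DMb1 was 142 and 920 CPM.

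B cells, which present the antigen that their own receptor takes up, had H2-Aa at 6003, 4340 and 2546 CPM in libraries 1, 2 and 3. Cd74 had the same order of libraries, with 21303, 13168 and 7400 CPM. Against macrophage-gated cells the sign of the difference depended on the library. The H2-Aa log2 difference was -0.89 in library 1, -0.26 in library 2 and 0.44 in library 3, and pooled it was -0.56. Both classes had more in library 1 than in library 3, and the macrophage range was the wider. H2-Eb1 and H2-DMb1 were at least 2-fold lower in B-gated cells, 2 of 9, against 18.2% of 9471 genes, and H2-Oa and H2-Ob at least 2-fold higher, 2 of 9, against 17.8%. H2-Eb1, at -1.11, fell short of 2-fold in 5 alternatives, among them those without library 1 (-0.92) and without library 3 (-0.90).

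The inhibitor pair set dendritic and B cells apart from the phagocytes. H2-Ob, the beta chain of H2-O, was 483, 485 and 327 CPM in B-gated cells of libraries 1, 2 and 3. It was 138 and 76.6 CPM in dendritic-gated cells of libraries 1 and 2, and at most 14.1 CPM in macrophage-gated cells of any library. H2-Oa, its alpha chain, was 302, 229 and 160 CPM in B-gated cells, 223 and 196 CPM in dendritic-gated cells and at most 42.2 CPM in macrophage-gated cells. The B and dendritic values lay above the macrophage values in every library. The pooled log2 difference of B-gated over macrophage-gated cells was 6.84 for H2-Ob (6.11 to 7.66) and 5.36 for H2-Oa. For dendritic-gated cells it was 4.66 (3.90 to 5.51) and 5.13 (4.52 to 5.80). Within a class the balance of the chains differed: there were 1.90 H2-Ob UMIs for each H2-Oa UMI in B-gated cells (1.43 to 2.53) and 0.491 in dendritic-gated cells (0.374 to 0.641). Classical monocytes held 17 H2-Oa UMIs, none of them in libraries 2, 3 and 4, the libraries with 20 or more of these cells.

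The editors differed in which beta chain was counted. The mouse has a pair of H2-DM beta genes, H2-DMb1 and H2-DMb2, the latter no member of the set but its neighbour, at chr17:34143307-34151555 (+). B-gated cells had 5.64 H2-DMb2 UMIs for each H2-DMb1 UMI (3.88 to 8.43), dendritic-gated cells 0.480 (0.412 to 0.557) and macrophage-gated cells 0.0180 (0.0128 to 0.0246). H2-DMb2 stood at 524 CPM in B-gated, 281 CPM in dendritic-gated, 8.55 CPM in macrophage-gated and 7.65 CPM in classical monocyte cells. H2-DMb1 stood at 93.0, 587, 476 and 178 CPM. The order of the classes therefore differed between the beta genes. In mature dendritic cells the ratio was 1.87. These genes resemble each other: of 949 windows of 91 bases in the last 500 bases of H2-DMb1 transcripts, 148 (15.6%) also occur in H2-DMb2, so some reads cannot be assigned to either; no such window was shared for the other 8 genes. H2-DMa, with a single gene, was 801, 407 and 425 CPM in dendritic-gated, macrophage-gated and B-gated cells. There were 1.17 H2-DMb1 UMIs per H2-DMa UMI in macrophage-gated, 0.732 in dendritic-gated and 0.219 in B-gated cells.

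**Figure D3:**
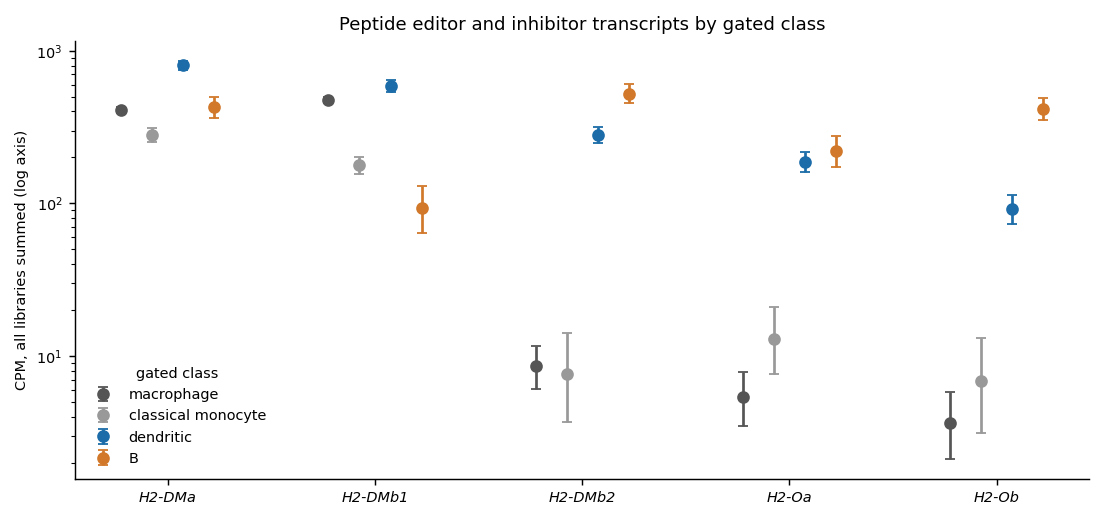
Levels in CPM (y axis, log scale) of the peptide editors H2-DMa, H2-DMb1 and H2-DMb2 and of the inhibitors H2-Oa and H2-Ob in macrophage-gated, classical monocyte, dendritic-gated and B-gated cells, pooled over libraries with 95% Poisson intervals. H2-DMb2 (524 CPM) and H2-Ob (417 CPM) are highest in B-gated cells, and H2-DMb1 is lower there (93.0 CPM) than in macrophage-gated cells (476 CPM).

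Endothelial cells, which in mice carry little class II unless exposed to interferon gamma, lay close to the T-cell background. H2-Ab1 was 89.8, 50.3 and 37.9 CPM in libraries 1, 2 and 3, where T-gated cells had 36.9, 126 and 16.5 CPM. The ranges overlapped, and the pooled log2 difference was -0.35 (-0.91 to 0.18). H2-Aa differed by -0.36 (-1.08 to 0.30) and Cd74 by -1.69. Of 6 genes compared, 3 were at least 2-fold lower than in T-gated cells, where 15.2% of 9165 genes were. After thinning, 6.10% of endothelial cells (2.96 to 10.9%) held an H2-Ab1 UMI, a higher share than in T-gated cells above, with overlapping intervals. Ciita had no UMI, and 3 UMIs would be 4.30 CPM. Within libraries the sign of the I-A chains differed. The log2 difference from T-gated cells of the same library was 1.28 for H2-Ab1 in library 1 (0.31 to 2.21), -1.33 in library 2 (-2.68 to -0.24) and 1.20 in library 3 (-0.44 to 3.08). For H2-Aa it was 1.59 in library 1 (0.47 to 2.68) and -0.97 in library 2 (-2.47 to 0.22), and library 3 had 0 endothelial and 2 T-gated UMIs. These H2-Ab1 differences rest on 7 to 17 endothelial UMIs each. The T-gated level rests on few cells: 1 cell held 69 of its 142 H2-Ab1 UMIs. Only library 2, with 109 T-gated H2-Ab1 UMIs, held enough to contain that cell. Its part in the library 2 and pooled differences was not tested. The 3 lower genes, H2-Eb1, Cd74 and H2-DMa, were not 2-fold lower when cells with markers of another class were kept.

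Proximal tubule cells, the main epithelium in these libraries, were low but not uniform. Pooled, H2-Ab1 was 59.6 CPM, H2-Aa 20.2, Cd74 99.1 and Ciita 2.57 CPM. Of the 9 genes, 5 were at least 2-fold lower than in T-gated cells (H2-Aa, H2-Eb1, Cd74, H2-Oa and H2-Ob), against 27.3% of 13904 genes, and H2-DMb1 was at least 2-fold higher (1.46), against 27.9%. The T-gated level rests on few cells: 10 of 1003 held 76.3% of its H2-Aa, 67.6% of its H2-Eb1 and 59.5% of its Cd74 UMIs. For the inhibitors it rests on few UMIs. H2-Oa had 11 in all, and H2-Ob had 3, 1, 0 and 0 in libraries 1 to 4. By library, H2-Ab1 was 90.6, 124, 36.0, 42.7 and 13.5 CPM in libraries 1 to 5, and Cd74 183, 216, 41.5, 60.8 and 17.3 CPM. For these genes libraries 1 and 2 were high and library 5 lowest, whereas H2-DMb1 and Ciita were highest in library 3. Thick ascending limb cells had less, with 16.8 CPM of H2-Ab1 and 25.8 CPM of Cd74. Against T-gated cells of the same library, H2-Ab1 in proximal tubule cells differed by 1.29, -0.03, 1.13 and 2.82 on the log2 scale in libraries 1 to 4, and by -0.18 pooled. The pooled sign was thus not that of 3 of the 4 libraries. H2-Aa differed by 0.35, -1.06 and 1.00 in libraries 1 to 3 and had no UMI in the T-gated cells of library 4, and Cd74 differed by -0.04, -0.55, -0.25 and -0.37. H2-Aa, H2-Eb1 and Cd74 were not 2-fold lower with libraries weighted equally (-0.23, -0.48 and -0.33), by per-cell means, or without library 2 or library 5. H2-DMb1 was not 2-fold higher without library 1 (0.93) or with cells of mixed markers kept (0.37), and it differed by -0.02 in library 4. Ciita held 640 of 249446905 UMIs in proximal tubule cells and none of 2101676 in T-gated cells. The interval of this difference held 0 in each of libraries 1 to 4. Ciita was detected in 0.24% of proximal tubule cells thinned to 1000 UMIs.

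Barcodes with 100 UMIs or fewer, which hold mostly free RNA, also carried these transcripts. H2-Ab1 in them was 269, 302, 76.2, 59.5 and 32.1 CPM in libraries 1 to 5, and Cd74 906, 575, 125, 133 and 62.2 CPM. Each of these values was above that of proximal tubule cells of the same library, and libraries 1 and 2 were again the high ones. For H2-DMa, H2-DMb1 and Ciita, by contrast, proximal tubule cells exceeded the near-empty level in at least 1 library. The proportion of the I-A chains was another matter. Near-empty barcodes had 1.10 H2-Ab1 UMIs per H2-Aa UMI (1.05 to 1.15), with 0.91 to 1.55 among libraries. Macrophage-gated cells had 0.955 (0.939 to 0.971), dendritic-gated cells 0.911, classical monocytes 0.883 and B-gated cells 0.844.

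Proximal tubule cells had 2.95 H2-Ab1 UMIs per H2-Aa UMI (2.85 to 3.04). The ratio was 2.88, 3.04, 2.72, 3.12 and 2.83 in libraries 1 to 5, above the near-empty barcodes and the professional classes in each. It was 3.11 when cells with any UMI of a leukocyte marker were left out. T-gated cells had 1.53 (1.17 to 2.01), endothelial cells 1.54 (0.90 to 2.69) and thick ascending limb cells 1.54 (1.05 to 2.29). The share of Cd74 also differed, with 4.90 Cd74 UMIs per H2-Aa UMI in proximal tubule cells, 2.85 in macrophage-gated cells and 2.81 in near-empty barcodes. H2-Eb1 showed a smaller difference, with 1.04 UMIs per H2-Aa UMI in proximal tubule cells and 0.883 in macrophage-gated cells. For H2-Ab1 per H2-Aa, the intervals of thick ascending limb and endothelial cells held the near-empty value, and those of proximal tubule and T-gated cells did not. The part of free RNA or of other cells' RNA in these levels was not tested. The ratio was 1.90 when cells that also carried the markers of another class were kept.

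**Figure D4:**
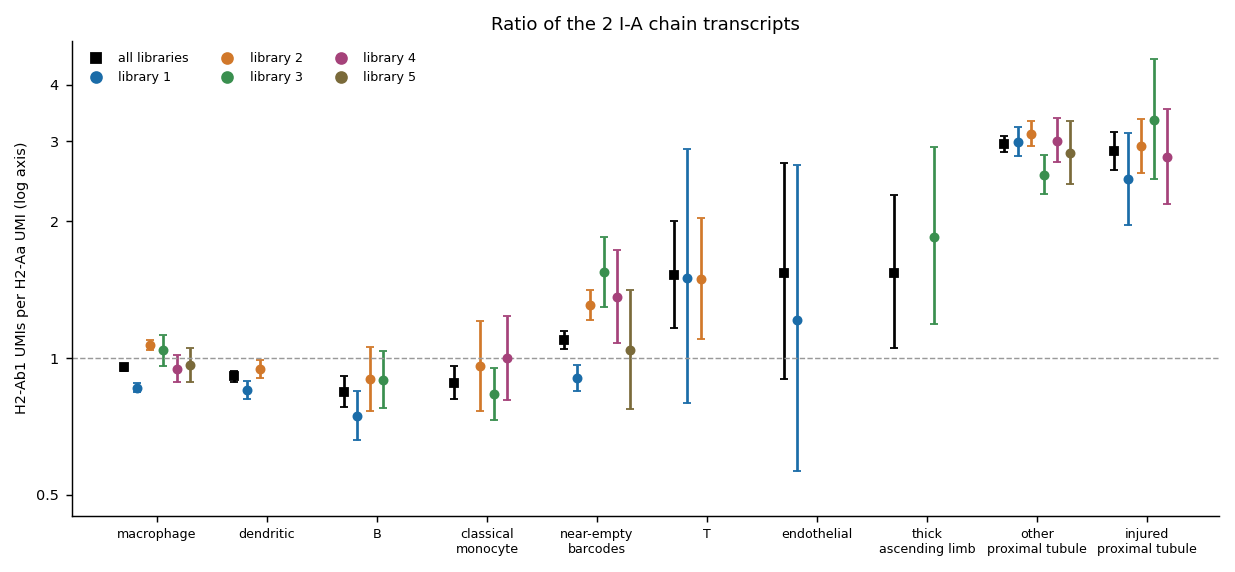
H2-Ab1 UMIs per H2-Aa UMI (y axis, log scale) by cell class and in near-empty barcodes (x axis), with black squares for the value pooled over libraries, coloured points for libraries and bars for exact 95% conditional binomial intervals. Proximal tubule cells without injury markers stand at 2.96 and those with 2 or more at 2.86, above near-empty barcodes at 1.10 and macrophage-gated cells at 0.955.

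Within the proximal tubule, class II transcripts were higher in cells with injury markers than in cells with none. Cells were split by Havcr1, Vcam1, Krt20, Sox9 and Cdh6, which mark injured or incompletely repaired tubule, and 772 of 41782 held at least 2 of them. H2-Ab1 was 49.0 CPM in cells with none, 95 with 1, 164 with 2 and 249 with 3 or more. The last step did not hold inside the libraries with 20 or more cells of both, where H2-Ab1 was 337 with 2 and 312 with 3 or more in library 2, and 55.7 and 39.1 CPM in library 3. Library 3, where H2-Ab1 was low in both of these groups, gave 327 of the 642 cells with 2 and 44 of the 130 with 3 or more. Cells with 2 or more exceeded cells with none by 1.91 on the log2 scale for H2-Ab1 (1.84 to 1.99), 1.96 for H2-Aa (1.83 to 2.09), 1.97 for H2-Eb1 and 2.28 for Cd74 (2.22 to 2.33). H2-DMa was 1.51 higher, H2-DMb1 1.28 and Ciita 1.6 (1.16 to 2.01). All 7 genes compared were at least 2-fold higher, where 10.1% of 14882 genes were. H2-DMb1 fell short of 2-fold by per-cell means (0.89) and at a 10% mitochondrial limit (0.94), and Ciita among cells of 5000 to under 10000 UMIs (0.93). H2-Oa and H2-Ob, with 0 and 3 UMIs in the injured cells, were too sparse to compare.

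The size of the difference depended on the library. H2-Ab1 in cells with 2 or more injury markers was 269, 328, 52.8 and 208 CPM in libraries 1 to 4, and 78.3, 96.0, 33.2 and 32.5 CPM in cells with none. Library 5, with 5 such cells, was left out of this comparison. In the pooled differences above it gave 8025 of the 36752 cells with none, so these mix libraries unequally. In each of the 4 libraries the marked cells were higher, by 1.78, 1.77, 0.67 and 2.68 on the log2 scale. Cd74 differed by 2.28, 2.22, 0.64 and 2.90. In library 4, 88 of the 102 marked cells held exactly 2 markers and gave 111 of the 263 H2-Ab1 UMIs. The rest came from the 14 cells with 3 or more. Library 3 held 371 of the 772 cells and had the smallest differences of H2-Ab1 and Cd74. There H2-Aa differed by 0.27 (-0.15 to 0.66), H2-Eb1 by 0.36 (0.02 to 0.69) and H2-DMb1 by only 0.01. Ciita differed by 1.05, 2.18, 0.57 and 0.26, with 54 UMIs in the marked cells in all, and only the interval of library 2 (1.48 to 2.84) left out 0.

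Among the single markers, Vcam1 went with the highest H2-Ab1 level in each of libraries 1 to 4. In library 3 its interval (36.8 to 75.1 CPM) held the level of each other marker. In library 4 its interval (279 to 357 CPM) overlapped that of Krt20 cells (216 to 300 CPM). The 657 proximal tubule cells with Vcam1, an adhesion molecule retained by tubule cells that fail to repair, had 297 CPM of H2-Ab1 and 685 CPM of Cd74. The 2976 cells with Havcr1, the acute injury marker KIM-1, had 98.1 and 157 CPM. Cells with Sox9, Cdh6 or Krt20 had 144, 125 and 95.1 CPM of H2-Ab1. These pooled levels mix libraries unequally, since 2102 of the 2976 Havcr1 cells but 78 of the 657 Vcam1 cells came from library 3. In Vcam1 cells H2-Ab1 was 331, 327, 53.4 and 316 CPM in libraries 1 to 4, and in Havcr1 cells 188, 277, 40.6 and 118 CPM. Havcr1 cells lay above Cdh6 cells in libraries 1 and 2, where the latter had 168 and 177 CPM, and below them in libraries 3 and 4, with 46.1 and 155 CPM.

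Several measured features stood beside this result. Cells with 2 or more injury markers were deeper, with a median of 9184 UMIs against 5038. Among cells of 5000 to under 10000 UMIs, H2-Ab1 was 166 against 43.0 CPM pooled. Library 5 gave 3305 of the 13731 cells with none in this range, at 11.5 CPM, and 0 of the 328 injured cells. Inside libraries 1 to 4, H2-Ab1 was 344, 406, 56.3 and 118 CPM in the injured cells. Cells with none had 68.2, 94.6, 31.7 and 31.4 CPM. The 8 macrophage markers summed to 4.70 CPM in the injured cells (3.54 to 6.20 among libraries) and to 6.53 CPM in cells with no injury marker (0.502 to 10.3), and 3 of the 8 were higher in the injured cells. The 10 dendritic markers summed to 5.29 and 3.26 CPM (3.96 to 6.20 and 2.36 to 5.40), with 6 of 10 higher and Xcr1, Cd209a and Wdfy4 at 0 in the injured cells. The gate let in proximal tubule cells only with fewer than 2 markers of each of these lists. Both sums were thus capped beforehand and cannot show how much leukocyte RNA these cells held. Without any cell holding a leukocyte marker UMI, H2-Ab1 was 185 CPM in the remaining 678 injured cells. The ratio of H2-Ab1 to H2-Aa was 2.86 in injured (2.59 to 3.16) and 2.96 in other proximal tubule cells (2.85 to 3.08). The transcripts were concentrated in few cells: 418 proximal tubule cells, 1% of them, held 40.5% of the H2-Aa and 26.7% of the H2-Ab1 UMIs. Among the 772 injured cells, 8 held 23.7% of the H2-Aa and 16.0% of the H2-Ab1 UMIs. After thinning, 14.0% of injured cells (11.6 to 16.6%) and 4.42% of other proximal tubule cells held an H2-Ab1 UMI, and 64.4% and 86.7% held none of the 9 genes.

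**Figure D5:**
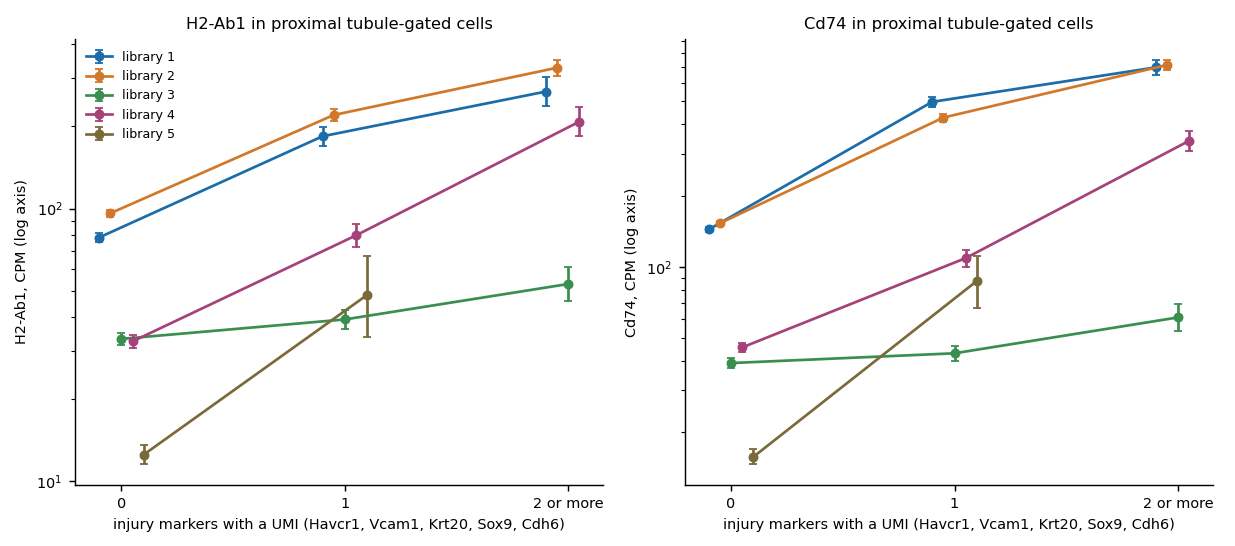
H2-Ab1 and Cd74 in CPM (y axis, log scale) in proximal tubule cells with 0, 1 or at least 2 injury markers (x axis), a line for each library, with 95% Poisson intervals. H2-Ab1 runs from 78.3 to 269 CPM in library 1 and from 33.2 to 52.8 CPM in library 3; library 5 has too few cells at the right.

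The factors that seat Ciita on promoters were compared as a list. None of the 7 (Rfx5, Rfxap, Rfxank, Nfya, Nfyb, Nfyc and Creb1) was at least 2-fold apart between dendritic-gated and macrophage-gated cells, between macrophage-gated cells and classical monocytes, or between injured and other proximal tubule cells, where 8.23%, 10.2% and 10.1% of all genes were at least 2-fold higher and 17.5%, 9.13% and 3.31% at least 2-fold lower. A count of 0 among 7 genes is no result about them beside these shares. Against T-gated cells, 2 of the 7 were at least 2-fold lower in proximal tubule cells, where 27.3% of all genes were, Creb1 lowest at -1.35. Rfx5 was the highest of them in the injured cells, at 0.67 on the log2 scale, and was 1.52 higher in B-gated than in macrophage-gated cells. Among 6 genes of the interferon gamma axis compared, which signals to Ciita in most cells, 2 were at least 2-fold higher in injured proximal tubule cells, where 10.1% of all genes compared were. The highest was Irf1, an interferon-induced transcription factor, at 2.44 (2.30 to 2.58), and the lowest Jak1, at 0.54. None of the 6 was 2-fold apart between macrophage-gated cells and classical monocytes, and in dendritic-gated cells 1 was, Jak2, at 3.10 above macrophage-gated cells. Over all genes, the shares 2-fold higher and lower were 10.2% and 9.13% in the former comparison and 8.23% and 17.5% in the latter, so that 0 and 1 of 6 genes are no result about this list.

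The antigen-processing genes were mostly lower in the other presenting cells than in macrophages. Of 7 (Ctss, Ctsl, Lgmn, Ifi30, Ctsb, Ctsd and Ctsc), 6 were at least 2-fold lower in dendritic-gated than in macrophage-gated cells (17.5% of all genes compared), with Ctsd, an endosomal aspartic protease, at -5.22 and Ifi30, the lysosomal thiol reductase, at 0.98. All 7 were at least 2-fold lower in B-gated cells (18.2% of all genes), from -1.68 for Ifi30 to -4.26 for Ctsd. Of the 7, 4 were at least 2-fold higher in macrophage-gated cells than in classical monocytes (10.2% of all genes), and none differed 2-fold between injured and other proximal tubule cells (10.1% of all genes were higher and 3.31% lower). Of 3 genes of class II turnover at the surface, Cd83, which slows its removal, was 2.17 higher in macrophage-gated cells than in monocytes and 1.34 higher in injured proximal tubule cells, where 10.2% and 10.1% of all genes were at least 2-fold higher. It was the only one of the 3 past 2-fold in either comparison. The lowest were March1, at -0.34, and March8, at 0.11. Of 4 co-stimulatory genes, 3 were at least 2-fold higher in dendritic-gated than in macrophage-gated cells (8.23% of all genes), Cd80 most, at 2.05, and Cd86 was the lowest, at -0.38. Of the neighbouring class II genes of the locus, H2-DMb2 was 2.88 higher in injured proximal tubule cells.

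Over 45 sums of UMIs by class and library, the genes whose log levels went most closely with the mean of the 9 were Ly86 (Pearson r = 0.931), Cd83 (0.927), Cd86 (0.887), Gm6377 (0.880), Rnase6 (0.877), Cybb (0.866), Pld4 (0.863), Cd180 (0.854), Arl5c (0.850) and Ms4a4c (0.849), out of 14081 genes. These sums share libraries and are not independent, so no p is given, and Spearman's rho would have named 4 of the 10. Each of the 9 was also set against the mean of the other 8, and Cd74 (0.970) and H2-Ab1 (0.960) lay closest to it. H2-Oa (0.753) and H2-Ob (0.674) lay farthest, and Ciita reached 0.937.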

How the data were processed

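Cells dissociated from mouse kidneys were profiled by droplet 3′ single-cell RNA sequencing in 5 samples. The authors deposited 1 matrix of UMI counts per gene and barcode for all libraries, made with Cell Ranger 6.0 and the mm10 genome per the submitters' processing notes; the counts are raw and span all barcodes, so cells were called here. Of barcodes with at least 500 UMIs, 70510 were called: the deepest, and those differing from a profile of low barcodes. That profile summed the barcodes ranked 45000 to 90000 by UMIs in each library. The comparison was a Monte Carlo test with 10000 simulations at a false discovery rate of 0.01. Those with under 200 genes (516) or over 25% mitochondrial UMIs (12196) were left out.

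A cell entered a class when it held at least 3 distinct markers of that class (1 fewer for a list of 3), fewer than 2 or, for lists of widely expressed genes and between mononuclear phagocytes, fewer than 3 of any other class, and, outside the proximal tubule, under 30 proximal tubule marker UMIs per 10000. Marker lists were written before the matrix was opened and this scoring rule afterwards. No doublet caller was used in the main values; Scrublet scores gave an alternative. Summed UMIs were compared as CPM, for genes with at least 20 UMIs in both classes together. A class at 0 UMIs was set to 3, and a gene was left out where that bound showed nothing. Libraries are compared where both classes held at least 20 cells. Pattern likeness used log2(CPM + 1). Because the labels do not map barcode suffixes to samples, libraries were not used as replicates, and beyond the calling of cells no test was run and no p-value is given; differences within libraries are given as values. The members and gene lists were chosen with earlier results of these data known. Named genes are the members, the highest and lowest gene of each list and the 10 genes of most similar pattern; H2-DMb2, Rfx5 and the listed names of a list were also named after their values were seen. B cell marker levels in tubule cells are not reported here. The comparison of classes was tested on simulated counts. Alternatives varied the cell calling, gates, mitochondrial and gene limits, doublets, free RNA, weighting, thinning and each library. Python 3.11.15, numpy 2.4.6, scipy 1.17.1, pandas 2.3.3, scanpy 1.11.5 and matplotlib 3.10.9 were used.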

Additional observations from a re-analysis of the deposited data

Results flagged for a closer look

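Barcodes above the 25% mitochondrial limit were used in no comparison, and the 9 genes summed were found in them above the level that 3 UMIs would give, which single genes did not all reach. Summed over the 9 genes, the 18 such barcodes that met the macrophage gate had 41144 CPM, where kept macrophage-gated cells had 34664 CPM. The 2 that met the dendritic gate had 36759 CPM, against 51754 CPM, and the 9 that met the B gate had 7165 CPM, against 23992 CPM. The 26 that met the T gate had 131 CPM from 9 UMIs, against 411 CPM in kept cells. The 8780 that met the proximal tubule gate had 153 CPM, against 241 CPM.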

How the results depend on the processing

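No test was run, so none was paired by library; differences between classes within libraries are given as values above. Values below are medians over the genes of the log2 difference. Dendritic against macrophage (0.73) was 0.80 without doublets, 0.95 with cells of mixed markers kept, 0.45 with libraries weighted equally, 0.19 by per-cell means and 0.60 to 1.03 leaving out each library. Macrophage against classical monocyte (1.48) was 2.97 with 1 more marker and 0.67 to 2.34 leaving out each library, the lowest without library 3. Non-classical against classical monocyte (1.16) was 0.85, 0.89, 0.34 and 0.56 under doublets out, mixed cells kept, equal weights and per-cell means, and -0.29 to 1.68 leaving out each library. B against macrophage (-0.38) was -0.21 with 1 more marker, -0.22 with mixed cells kept, -0.32, -0.88 and -0.44 under equal weights, per-cell means and a 10% mitochondrial limit, and -0.57 to -0.12 leaving out each library. B against T (5.65) was 6.10 with free RNA subtracted, 4.69, 6.25 and 6.16 with mixed cells kept, per-cell means and leukocyte-marked cells out, and 5.23 to 6.28. Endothelial against T (-1.03) was -0.19 with mixed cells kept, -0.083 by per-cell means and -1.87 to -1.05. Proximal tubule against T (-1.07) was -1.65, -0.33, -0.17 and -0.47 with mixed cells kept, equal weights, per-cell means and the 10% limit, and -1.02 to -0.83. Injured against other proximal tubule (1.91) was 2.09 without doublets, 1.33, 1.34 and 1.62 with mixed cells kept, per-cell means and the 10% limit, 1.82 without leukocyte-marked cells, 1.88 among cells of 5000 to under 10000 UMIs and 1.62 to 2.43. The exclusion of leukocyte-marked cells and the depth range were added after seeing the data.

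Of 65 single differences, 43 were at least 2-fold, and 599 of their 605 alternative values kept the sign, 555 at 2-fold or more. The others were H2-Oa, macrophage against classical monocyte (0.98 with 1 more marker, 0.38 by per-cell means, 0.46 with equal weights), Cd74, non-classical against classical monocyte (-0.68 without library 3), H2-Eb1, endothelial against T (0.057 with mixed cells kept), and H2-Aa, proximal tubule against T (0.26 by per-cell means). Causes of these moves were not tested.

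Counts of genes past 2-fold at 20 UMIs were 817 for dendritic over macrophage (1336 above 1 UMI, 342 at 100 UMIs, 254 at 4-fold), 1029 for macrophage over monocyte (415 at 100 UMIs, 332 at 4-fold), 762 for non-classical over classical monocyte (1609, 142 and 115), 1726 for B below macrophage (1133 and 698), 816 for B over T (1526, 168 and 188), 1393 for endothelial below T (619 and 688), 3794 for proximal tubule below T (2214 at 4-fold) and 1508 for injured over other proximal tubule (2406, 733 and 506). Of the 10 genes of similar pattern, 4 were shared under Spearman's rho and 8 with a pseudocount of 5 CPM. Subtraction of free RNA was not run for tubule comparisons, since it scales on tubule markers. At median depths of 1091.5 to 9184 UMIs per cell, Ciita was sampled in under 8% of the cells of each class after thinning. The 45 non-classical monocytes rest on 1 library of 20 cells or more.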
